A study of Mus musculus with 27 samples.

Results

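The mitochondrial ribosomal protein genes encode the protein part of the mitoribosome. They were taken as every row of the deposited gene table whose symbol begins with Mrpl or Mrps followed by a digit, leaving out 6 rows of pseudogenes, and they numbered 78 of 55369 rows. Of these, 49 carried an Mrpl and 29 an Mrps symbol. By where the protein sits, 29 belong to the large subunit and have a bacterial counterpart, 21 belong to the large subunit and have none, 16 belong to the small subunit and have a bacterial counterpart, 10 belong to the small subunit and have none, and Mrpl55 and Mrps36 were not placed. Mrps18a and Mrps30 were counted with the large subunit, where their proteins sit in spite of their names.

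The mitoribosome translates the few proteins that mitochondrial DNA encodes, all of them subunits of the respiratory chain or of the ATP synthase. Its ribosomal RNAs, mt-Rnr1 of the small and mt-Rnr2 of the large subunit, are transcribed from mitochondrial DNA, whereas all its proteins are encoded in the nucleus, made in the cytosol and imported. Assembly thus draws on both genomes, and the proteins of the complex are needed in fixed proportions. Mitochondria of the cleaving mouse embryo come from the egg.

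RNA was measured in wildtype mouse embryos grown in KSOM medium and harvested as morulae at E2.75, in 27 libraries of 15 to 20 pooled embryos each. In the inhibitor family, embryos were treated from embryonic day 2.5 with SAHA at 500 nM, TSA at 50 nM or A485 at 10 uM, with Vehicle embryos as controls, and the doses are those in the file headers. SAHA and TSA are hydroxamates that inhibit histone deacetylases, and A485 inhibits the acetyltransferases p300 and CBP. In the siRNA family, embryos were microinjected at embryonic day 0.5 with siP300, siKat6a, siKat6b or siComb, with siControl embryos as controls, and what siComb contained is not stated in the labels. KAT6A and KAT6B are acetyltransferases of the MYST family. Each of the 9 groups had 3 libraries. The series text calls replicates biological, but nothing says that the pools were collected separately, so that p-values measure the spread between these libraries. An injected siRNA lowers an RNA in part and acts from the zygote on, whereas the inhibitors acted briefly at the end of culture. In pools of whole embryos, fewer cells and less RNA per cell cannot be told apart.

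Libraries held 7633990 to 11991314 counts. Markers of the morula and its lineages were present in part. Cdh1, Krt8, Krt18, Dppa3 and Zfp42 had at least 35.5 CPM (counts scaled to a common library total) in all 27 libraries. Pou5f1, Nanog and Tfap2c were also detected in all 27, but at their lowest had 3.57, 0.768 and 0.171 CPM. Cdx2 was at 0 in 4 libraries, and Sox2, a marker of later inner cells, was at 0 in all 27. The siRNA targets were checked before the results. Ep300 averaged 19.7 ± 8.4 TMM-scaled CPM (CPM on library totals adjusted by TMM factors, SD, n = 3) in the libraries labelled siP300. In siControl libraries it averaged 26.5 ± 3.6, with an edgeR adjusted p of 0.259. Because Ep300 was thus not called lower, directions below are given for the libraries labelled siP300. CPM of genes in the comparisons below are TMM-scaled, whereas marker, per-kilobase and MERVL-int values use plain library totals. Kat6a in siKat6a libraries (log2 fold change -0.46) and Kat6b in siKat6b libraries (-0.56) were not called either. In siComb libraries Kat6a was lower by -0.64 on the log2 scale and Kat6b by -1.03 (edgeR adjusted p of 0.022 and 0.0082), and Ep300 was not called at -0.15. Libraries 2 of siP300, 1 and 3 of siKat6b and 2 of siComb stood apart by 898 to 989 CPM of the MERVL-int retroviral row, against 20.4 to 158 CPM in the other siRNA libraries, and counts of called mitoribosomal genes in the siP300, siKat6b and siComb groups are given without them below. In the inhibitor family Vehicle replicate 3 had 244 CPM of that row and the other Vehicle libraries 12.5 and 14.3 CPM, and without it 9 genes were called lower with SAHA, 47 with TSA and 23 with A485.

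Promoters are printed for Mrpl12, among the most decreased genes under TSA, for Mrps11 and Mrps18c, the most increased there, and for Mrps18b, the paralog of Mrps18c that moved the other way. Each is the 200 bases before the gene's start from RefSeq on GRCm38.p6, on the gene's own strand, with capitals marking a match to 1 of 3 motifs searched on both strands, the NRF1 palindrome, CCGGAAG (ETS factors such as GABPA) and AAGATGGCG (YY1). Mrps18b was added after its values were seen, and Mrps34, the most decreased gene under TSA, had no promoter in that source. RefSeq starts can differ from the GENCODE vM21 starts used for gene coordinates below. The stretches of Mrpl12, Mrps11 and Mrps18c run past their GENCODE vM21 starts. Mrpl12 lies at chr11:120484437-120484636 on the plus strand and Mrps18b at chr17:35916441-35916640 on the minus strand, and neither stretch of 200 bases held a match. Mrps11 lies at chr7:78782931-78783130 and Mrps18c at chr5:100798559-100798758, both on the plus strand.
Mrpl12: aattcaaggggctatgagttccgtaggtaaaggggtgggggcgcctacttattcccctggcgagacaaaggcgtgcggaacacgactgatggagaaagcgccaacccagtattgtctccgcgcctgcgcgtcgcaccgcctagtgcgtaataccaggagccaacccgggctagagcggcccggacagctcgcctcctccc
Mrps18b: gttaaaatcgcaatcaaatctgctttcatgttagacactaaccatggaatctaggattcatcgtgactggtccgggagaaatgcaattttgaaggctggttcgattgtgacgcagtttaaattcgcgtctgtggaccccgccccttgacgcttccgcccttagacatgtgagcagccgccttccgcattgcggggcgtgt
Mrps11: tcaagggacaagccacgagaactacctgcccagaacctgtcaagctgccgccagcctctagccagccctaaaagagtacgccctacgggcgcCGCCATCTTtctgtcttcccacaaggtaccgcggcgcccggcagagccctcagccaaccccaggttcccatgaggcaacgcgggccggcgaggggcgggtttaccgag
Mrps18c: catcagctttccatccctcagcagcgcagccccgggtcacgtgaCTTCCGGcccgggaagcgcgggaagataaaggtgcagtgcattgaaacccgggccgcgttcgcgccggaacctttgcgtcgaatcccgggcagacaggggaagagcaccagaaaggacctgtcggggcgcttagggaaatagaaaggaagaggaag
The match of Mrps11, whose RNA was higher with TSA, is the YY1 motif read on the other strand, and that of Mrps18c, whose RNA was higher with all 3 inhibitors, is the ETS motif read on the other strand. A gene was counted where any of its promoters in the RefSeq table held the motif in the whole tabled window of 250 bases before to 50 after the start. Among the 69 of 78 genes with a promoter there, 26 (37.7%) held CCGGAAG, against 9.93% of all 27025 genes with a promoter. AAGATGGCG was held by 8 (11.6%), against 1.64%, and the NRF1 motif by 3 (4.35%), against 1.07%. Mrps18b and Mrps18c are both among the 26, the match of Mrps18b lying outside its printed stretch. A match describes letters in a window and is not a measured site. Under TSA, 15 of the 24 tested genes with CCGGAAG and 30 of the 42 without it were called lower, with median log2 fold changes of -0.72 and -0.64. In the libraries labelled siP300 the counts were 18 of 24 with the motif and 29 of 42 without it, with medians of -0.88 and -0.81.

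In the control embryos the genes spanned a wide range of levels. On the scale of CPM per kilobase of exon, which allows genes of different length to be compared, Mrpl22, a protein of the large subunit near the tunnel exit, led in siControl embryos at 476 ± 47.1 (SD, n = 3), followed by Mrpl36 at 455 ± 77.9, Mrpl18 at 359 ± 13.3, Mrps24 at 308 ± 26.4 and Mrpl55 at 297 ± 21.8. Mrpl22 and Mrpl36 differed by less than their spread, as did Mrps24 and Mrpl55. In Vehicle embryos Mrpl18, which helps import ribosomal RNA into mitochondria in human cells, led at 436 ± 38.1 CPM per kilobase, then Mrpl22 at 313 ± 22.2, Mrpl28 at 280 ± 17.6, Mrpl36 at 274 ± 30.5 and Mrps24 at 255 ± 37.7. Mrpl28, Mrpl36 and Mrps24 differed by less than their spread. The median gene stood at 61.7 CPM per kilobase in both control groups. The lowest of the 75 tested genes in siControl embryos were Mrps5 at 6.34 ± 1.04, Mrps35 at 8.75 ± 1.94 and Mrpl3 at 8.85 ± 1.29 CPM per kilobase. Mrpl18, Mrpl22, Mrpl28 and Mrps24 were among the 10 highest in all 9 groups. Lengths are those of all annotated exons of a gene, so that a gene with long unused exons appears low.

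Treatment reordered the top of this ranking. Mrpl36 was absent from the 5 highest in the libraries labelled siP300 and in siComb libraries, where Mrps21 stood in the top 3 at 214 ± 5.8 and 220.4 ± 9.9 CPM per kilobase. Mrps21 ranked 6 in siControl libraries at 257 ± 57.4 CPM per kilobase, so it rose in rank and not in level. With A485, Mrpl18 led at 450 ± 92.6 CPM per kilobase and Mrps21 followed at 319 ± 64.1. With TSA, Mrpl22 at 263 ± 12.3 and Mrpl28 at 262 ± 44 led, both within their spread, and Mrpl18 followed at 190 ± 15.3.

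The remaining 3 genes gave no level. Mrpl33 and Mrpl53 had 0 counts in all 27 libraries, and Mrps6 had 4 counts, all in siControl library 3. Exons of these 3 overlap exons of other genes in GENCODE vM21 (Gm43809 for Mrpl33, Gm42688 for Mrpl53 and Slc5a3 for Mrps6), and how shared reads were assigned is not given in the sources used here. The other 75 genes passed the filter on low counts in both families and were tested.

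Together the 78 genes took 0.751, 0.879 and 0.790% of library counts in TSA embryos, the lowest of the inhibitor family. SAHA embryos gave 1.28, 1.34 and 1.17% and A485 embryos 1.27, 1.22 and 1.3%, against 1.41, 1.36 and 1.38% in Vehicle embryos. None of the 3 treated groups overlapped the Vehicle libraries. In the siRNA family the share was 0.866, 1.1 and 0.904% in the libraries labelled siP300 and 0.848, 0.981 and 0.966% in siComb libraries. It was 1.49, 1.31 and 1.32% in siKat6a and 1.21, 1.39 and 1.2% in siKat6b libraries, against 1.46, 1.39 and 1.53% in siControl libraries. The siP300 and siComb libraries lay well below all siControl libraries, siKat6a overlapped them, and siKat6b replicate 2 and siControl replicate 2 both stood at 1.39%. The share of counts from mitochondrially encoded rows moved the other way, at 2.48 to 3.53% in TSA, 1.61 to 2.15% in SAHA, 2.36 to 2.62% in A485 and 0.997 to 1.2% in Vehicle libraries. It was 4.93 to 6.99% in the libraries labelled siP300 and 4.86 to 5.41% in siComb, against 1.94 to 2.45% in siControl libraries. Without mitochondrially encoded rows in the total, the genes' share averaged 0.832% with TSA, 1.01% in the siP300 group and 0.982% in the siComb group, against 1.4% with Vehicle and 1.49% with siControl. The plot of shares shows both families.

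**Figure D1:**
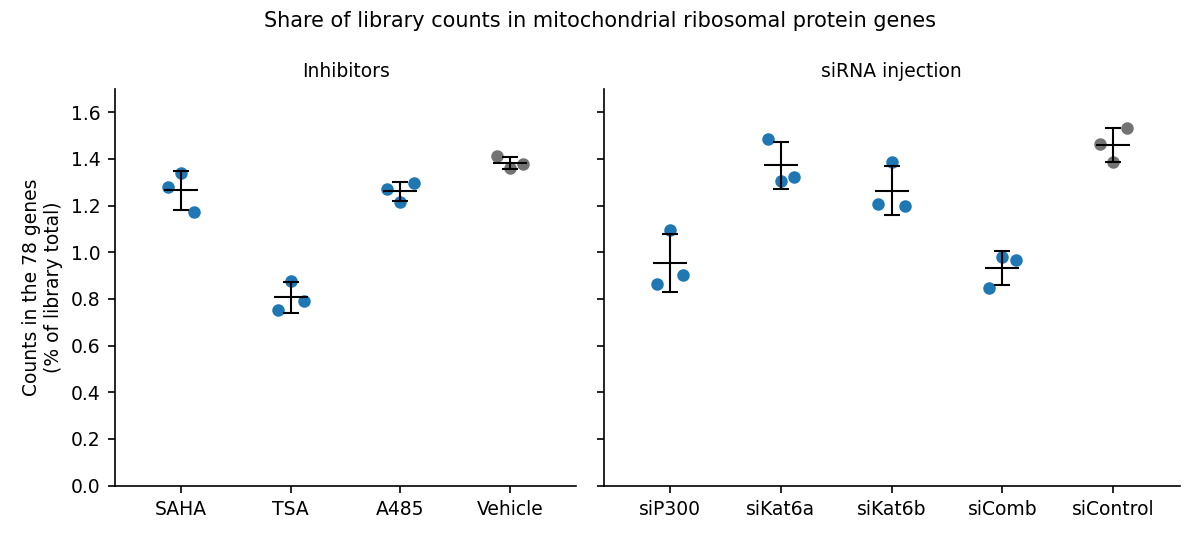
Share of each library's counts, in percent, that fell on the 78 mitochondrial ribosomal protein genes. Points are libraries (n = 3 per group), the dash is the mean and the bar is 1 SD. TSA libraries lie between 0.751 and 0.879%, below all Vehicle libraries, and the libraries labelled siP300 and siComb lie between 0.848 and 1.1%, below all siControl libraries.

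TSA lowered most of these genes. Of the 75 tested, 52 were called lower and 5 higher at an edgeR adjusted p below 0.05, and 30 of the 52 were lower by at least 2-fold. Among all 18299 genes tested, 26.6% were called lower and 31.6% higher, 58.2% in all. The groups did not overlap in 64 of the 75, beside 68% of all genes. The median log2 fold change was -0.69 for the 75 genes and 0.08 for all genes. Both subunits were affected, with 34 of 48 large-subunit genes lower and 2 higher (median -0.71) and 17 of 25 small-subunit genes lower and 3 higher (median -0.61). Scaling by DESeq2 size factors moved the median of all genes to 0.22 and that of these genes to -0.54, with 45 lower and 6 higher.

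Mrps34, a small-subunit protein at chromosome 17, 24895116 to 24897502, that is needed for stability of that subunit, fell the most. It had 22.7, 37.9 and 31.6 CPM in TSA embryos, against 200, 203 and 227 CPM in Vehicle embryos. The groups lay far apart, with a log2 fold change of -2.77 ± 0.19 (SE) and an edgeR adjusted p of 6e-08. Its exons overlap those of Mapk8ip3 and Nme3, and the strand setting of the authors' counting is not given in the sources used here. Mrpl12, which sits in the stalk of the large subunit and also binds the mitochondrial RNA polymerase, had 81.6, 104 and 91.3 CPM in TSA embryos, against 385, 366 and 338 CPM in Vehicle embryos. Its log2 fold change was -1.98 ± 0.15 (edgeR adjusted p of 1.7e-07), and again no library of either group came near the other group.

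Mrps35, Mrpl36 and Mrpl19 followed, with log2 fold changes of -1.96, -1.95 and -1.93 and groups that did not overlap. Mrpl36, the smallest protein of the large subunit in its bacterial form and a ligand of zinc there, averaged 81.4 ± 9.53 CPM with TSA and 315 ± 31.9 CPM with Vehicle. Its exons overlap those of Ndufs6 on the opposite strand, a complex I gene whose own log2 fold change was -1.33. Mrps30, a large-subunit protein without a bacterial counterpart, averaged 33.4 ± 4.34 CPM with TSA and 112 ± 11.1 CPM with Vehicle, a log2 fold change of -1.75.

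The 5 genes called higher with TSA were Mrps18c, Mrps11, Mrpl20, Mrpl49 and Mrps33. Mrps11, a protein of the small-subunit platform whose exons overlap those of Mrpl46, had 110, 114 and 114 CPM in TSA embryos, against 67.8, 73.1 and 78.8 CPM in Vehicle embryos. Its log2 fold change of 0.62 ± 0.13 had an edgeR adjusted p of 0.0012. Mrpl20, which binds ribosomal RNA early in assembly in bacteria, averaged 288 ± 28.2 CPM with TSA and 207 ± 10.9 CPM with Vehicle (log2 fold change 0.48). The calls of Mrpl49 and Mrps33 rested on every Vehicle library, since leaving out Vehicle replicate 1, 2 or 3 gave adjusted p of 0.074, 0.157 and 0.056 for Mrpl49 and of 0.053, 0.068 and 0.051 for Mrps33. Without TSA replicate 2 or 3 Mrpl49 also had adjusted p of 0.122 and 0.066.

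SAHA, at its own dose, moved fewer of the genes and moved them less. Of 75 genes, 15 were called lower and 7 higher, beside 14% lower and 20.2% higher among all genes tested, so that the count higher was below and the count lower only a little above the background. The median log2 fold change was -0.16 for these genes and 0.06 for all genes. Scaling by DESeq2 size factors gave 14 lower and 11 higher. Leaving out Vehicle replicate 3 or SAHA replicate 3 left 9 lower, and leaving out Vehicle replicate 2 left 3 higher. SAHA and TSA were given at different doses, so their values stand side by side without a test between them.

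Mrps28, a small-subunit protein, was lowest and was the 1 gene past a 2-fold change. It had 35.2, 33.2 and 31.4 CPM in SAHA embryos, against 65.4, 64.6 and 70.1 CPM in Vehicle embryos, a log2 fold change of -1.003 ± 0.17 (edgeR adjusted p of 0.00048). Every SAHA library lay well below every Vehicle library. Mrps35 (-0.99), Mrps30 (-0.93), Mrpl19 (-0.82) and Mrps34 (-0.81) were lower as well, and Mrps34 averaged 120 ± 1.39 CPM with SAHA and 210 ± 14.6 CPM with Vehicle. Mrpl12 stood at -0.60 on the log2 scale, against -1.98 with TSA. Mrps27, a protein with pentatricopeptide repeats, was called lower at -0.71, a call lost without Vehicle replicate 3 or SAHA replicate 1 (adjusted p of 0.063 and 0.07).

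Higher with SAHA were Mrps12, Mrpl20, Mrps18c, Mrpl49, Mrps11, Mrps33 and Mrpl21. Mrps12, whose bacterial counterpart lies at the decoding centre, had 303, 295 and 232 CPM in SAHA embryos, against 168, 154 and 156 CPM in Vehicle embryos. Its log2 fold change of 0.79 ± 0.19 had an edgeR adjusted p of 0.0052. Mrpl20 averaged 359 ± 28.1 CPM with SAHA and 207 ± 10.9 CPM with Vehicle, a log2 fold change of 0.79 as well. The last 4 genes of the list, at 0.57, 0.47, 0.45 and 0.42, lost their calls without Vehicle replicate 2 (adjusted p of 0.058, 0.055, 0.058 and 0.074).

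A485 split the genes. It left 27 of 75 lower and 10 higher, beside 24.2% lower and 21.4% higher among all genes tested. The groups did not overlap in 47 genes, beside 52.7% of all genes. The median log2 fold change of -0.14 was close to that of all genes at -0.06. At least 2-fold changes were seen for 10 genes lower and 1 higher. Small-subunit genes without a bacterial counterpart were lower in 6 of 10 cases and higher in none, with a median of -0.87, whereas those with a counterpart were lower in 4 and higher in 4 of 15, with a median of -0.12. No test of the difference between these classes was made.

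Mrps18b was lowest with A485, and Mrpl12 followed it with 121, 99.8 and 130 CPM in A485 embryos, against 385, 366 and 338 CPM in Vehicle embryos. Its log2 fold change was -1.63 ± 0.15 (edgeR adjusted p of 1.2e-06), with groups far apart. Mrpl19, Mrps5, Mrpl36 and Mrpl15 were lower by -1.47, -1.28, -1.26 and -1.25 on the log2 scale. Mrps5, a protein of the small-subunit entry side and among the lowest per kilobase in every group, averaged 21.4 ± 7.19 CPM with A485 and 52 ± 4.13 CPM with Vehicle.

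Mrps21, a small-subunit protein with a bacterial counterpart, was highest. It had 262, 190 and 222 CPM in A485 embryos, against 124, 108 and 104 CPM in Vehicle embryos, a log2 fold change of 1.004 ± 0.16 (edgeR adjusted p of 0.00016). Mrps36, which carries a ribosomal name but encodes a subunit of the alpha-ketoglutarate dehydrogenase complex, had 102, 82.4 and 99.2 CPM with A485, against 54.3, 50.6 and 40.4 CPM with Vehicle (log2 fold change 0.97 ± 0.19, edgeR adjusted p of 0.00082). Mrps14, a protein of the small-subunit head, averaged 490.5 ± 35.5 CPM with A485 and 265 ± 9.08 CPM with Vehicle. Mrpl50 and Mrps16 were higher by 0.76 and 0.73 on the log2 scale. In none of these 5 genes did a treated library reach down to a Vehicle library.

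**Figure D2:**
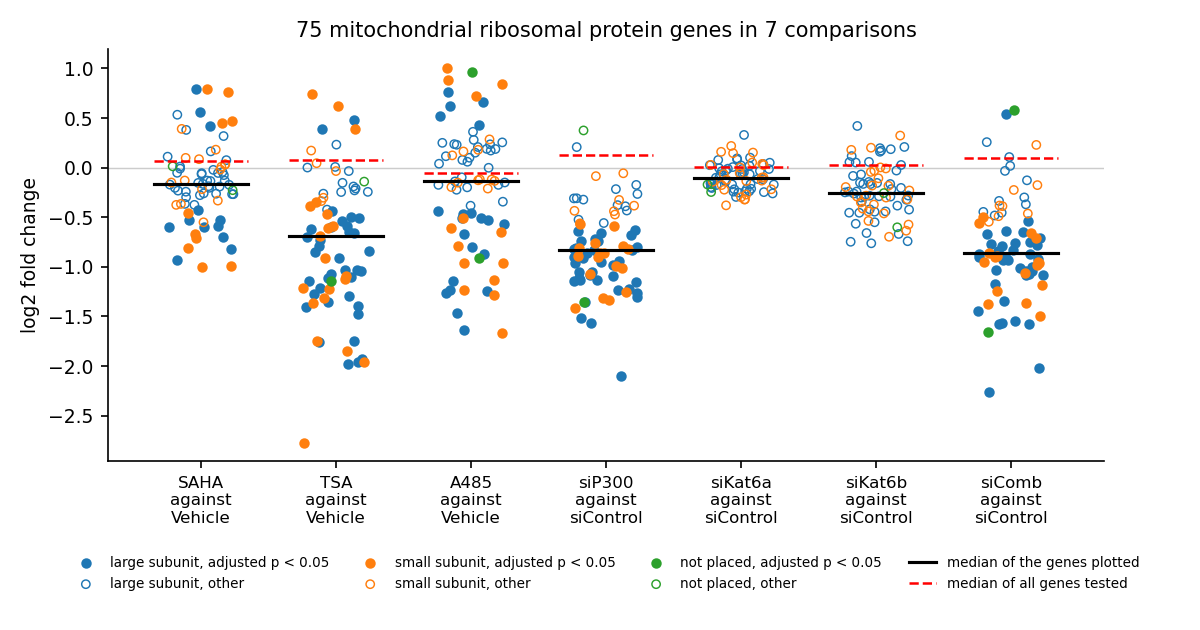
Log2 fold change (vertical axis) of the 75 tested genes in each of the 7 comparisons with a control (horizontal axis). Each point is a gene, filled where the edgeR adjusted p is below 0.05 and coloured by subunit, black lines are the medians of these genes and red dashed lines the medians of all genes tested. The genes' medians are -0.69 with TSA, -0.83 in the siP300 and -0.86 in the siComb comparison, with the medians of all genes at 0.08, 0.13 and 0.09.

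In the libraries labelled siP300, 54 of 75 genes were called lower and 0 higher, beside 15.7% lower and 19.7% higher among 19182 genes tested. No gene was called higher by DESeq2 either. At an unadjusted p under 0.05, 1 was higher and 61 lower, beside 45.6% of all genes in either direction. The median log2 fold change was -0.83, with that of all genes at 0.13, and 24 genes were lower by at least 2-fold. Genes of the large subunit (36 of 48 lower, median -0.85) and of the small subunit (17 of 25 lower, median -0.81) were both lower. Scaling by library size alone moved the median of all genes to 0.45 and that of these genes to -0.53, with 41 lower and 1 higher. Without the 4 libraries high in MERVL, 62 genes were called lower, with a median of -1.03.

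Mrpl36, at chromosome 13, 73328513 to 73332178, led the decrease. It had 150, 142 and 117 CPM in the libraries labelled siP300, against 550.5, 493 and 714 CPM in siControl libraries. The log2 fold change was -2.10 ± 0.20 (edgeR adjusted p of 2.4e-06), and the highest siP300 library was far below the lowest siControl library. Mrpl23, a protein at the exit of the nascent-chain tunnel, had 67.3, 69.7 and 45.2 CPM in the libraries labelled siP300, against 161, 154 and 225 CPM in siControl libraries, a log2 fold change of -1.57 ± 0.29 (edgeR adjusted p of 0.00069). Mrpl15, Mrps24, Mrpl55 and Mrpl17 were lower by -1.52, -1.41, -1.35 and -1.35 on the log2 scale. Mrpl17, a large-subunit protein with a bacterial counterpart, averaged 199 ± 15.9 CPM in the libraries labelled siP300 and 508 ± 35 CPM in siControl libraries. Mrpl12 (-0.95) and Mrps30 (-1.11) were also lower.

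Mrps36 was the gene with the highest log2 fold change in this comparison, at 0.38 ± 0.16. It had 40.2, 51.3 and 54.2 CPM in the libraries labelled siP300, against 37.8, 35.9 and 38.7 CPM in siControl libraries. The groups did not overlap, but the edgeR adjusted p was 0.085. It passed the threshold without siP300 replicate 1, at 0.49 and an adjusted p of 0.038.

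siComb lowered most of the genes as well. Of 75 genes, 54 were called lower and 2 higher, beside 17.1% lower and 19.6% higher among all genes tested, with a median log2 fold change of -0.86 and a median of all genes of 0.09. Scaling by library size alone moved the median of all genes to 0.36 and left these genes at -0.60, with 41 lower and 3 higher. Without the 4 libraries high in MERVL, 56 were lower and 2 higher. Mrpl36 had 106, 139 and 123 CPM in siComb libraries, against 550.5, 493 and 714 CPM in siControl libraries (log2 fold change -2.26 ± 0.20, edgeR adjusted p of 6.8e-07). Mrpl23 had 24.9, 61.3 and 46.8 CPM in siComb libraries, against 161, 154 and 225 CPM in siControl libraries, a log2 fold change of -2.02 ± 0.29. Both genes were separated from the controls in every library. Mrpl55 (-1.65), Mrpl52 (-1.58), Mrpl35 (-1.57) and Mrpl11 (-1.57) followed.

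The 2 genes called higher in siComb libraries were Mrps36 and Mrpl9. Mrps36 had 56.5, 59.1 and 52.6 CPM in siComb libraries, against 37.8, 35.9 and 38.7 CPM in siControl libraries (log2 fold change 0.58 ± 0.16, edgeR adjusted p of 0.011). Mrpl9, a large-subunit protein with a bacterial counterpart, averaged 64.1 ± 8.38 CPM in siComb and 43.9 ± 9.23 CPM in siControl libraries. Its call was lost without siControl replicate 2 or 3 or siComb replicate 1 or 3, with adjusted p of 0.088, 0.177, 0.154 and 0.053. The 2 groups shared their controls, so their own values are what is compared. Set directly against siP300, siComb had 0 of 75 genes called in either direction by edgeR, beside 0.511% higher and 0.276% lower among all genes, and 0 by DESeq2. At an unadjusted p under 0.05 there was 1 gene, Mrpl37, with 128 ± 14.3 CPM in siComb libraries and 92.1 ± 5.71 CPM in the libraries labelled siP300. Among all genes 13.5% passed that cutoff. The log2 fold changes of the 75 genes in this comparison lay between -0.49 and 0.48, with a median of 0.01.

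With the single KAT6 injections edgeR called none of the genes. With siKat6a, 0 of 75 genes were called by edgeR and 0 by DESeq2, beside 0% of all genes. Of the 75, 0 had an unadjusted p under 0.05, beside 2.14% of all genes, and their median log2 fold change was -0.10. With siKat6b, edgeR called 0 of 75, beside 0.0104% of all genes in each direction (0.0209% in all). At an unadjusted p under 0.05, 20 were lower and 1 higher, beside 10.4% of all genes in either direction. DESeq2 called 4 lower (Mrpl30, Mrpl36, Mrps16 and Mrpl41), and 3 of these passed in edgeR without siKat6b replicate 2 (Mrpl30, Mrpl36 and Mrpl41). The median was -0.26, and in 36 of 75 genes the groups did not overlap, beside 17.1% of all genes. Mrpl36 averaged 349 ± 71 CPM in siKat6b and 586 ± 115 CPM in siControl libraries. Its 3 siKat6b values, 307, 431 and 309 CPM, place replicates 1 and 3 lowest, which are the libraries high in MERVL. Without the libraries high in MERVL 1 siKat6b library was left, assumed in the fit to vary like the other groups, and edgeR called 0 genes.

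**Figure D3:**
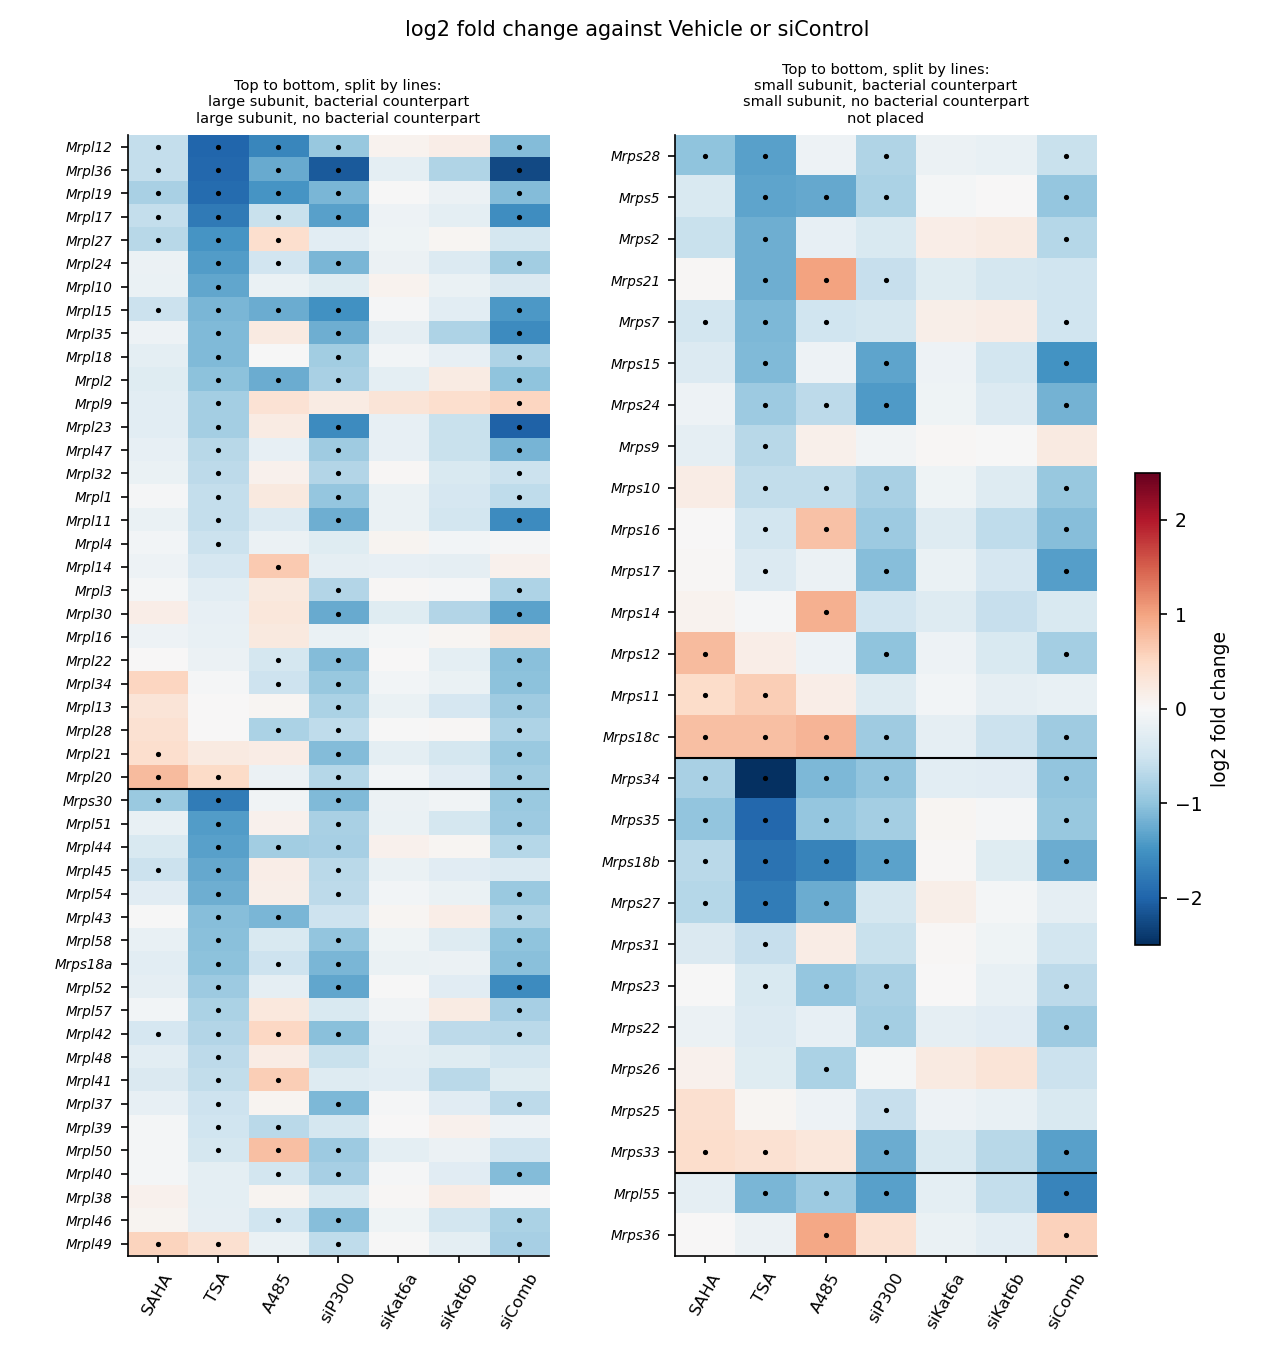
Log2 fold change (colour) of each tested gene (rows, grouped by subunit and ordered by TSA against Vehicle within a group) in the comparisons with Vehicle or siControl (columns). Dots mark an edgeR adjusted p below 0.05. The TSA, siP300 and siComb columns hold 52, 54 and 54 genes called lower, and the siKat6a and siKat6b columns hold 0.

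The paralogs Mrps18a, Mrps18b and Mrps18c are 3 vertebrate relatives of a single bacterial protein. Mrps18b and Mrps18c occupy different sites in the small subunit and Mrps18a a site in the large subunit. In GENCODE vM21 on GRCm38 they lie at chromosome 17, 46110986 to 46128910, at chromosome 17, 35910379 to 35916389 and at chromosome 5, 100798627 to 100804471. With each inhibitor Mrps18c was higher and Mrps18b lower.

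Mrps18c had 181, 181 and 198 CPM with SAHA, 156, 219 and 179 CPM with TSA and 204, 183 and 208 CPM with A485, against 115, 103 and 113 CPM with Vehicle. Its log2 fold changes were 0.76 ± 0.15, 0.74 ± 0.15 and 0.85 ± 0.15, with edgeR adjusted p of 0.0014, 0.00069 and 0.00035. All 9 treated libraries were above all 3 Vehicle libraries.

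Mrps18b had 212, 213 and 156 CPM with SAHA, 69.6, 102 and 84.6 CPM with TSA and 62.5, 105 and 123 CPM with A485, against 297, 295.5 and 332 CPM with Vehicle. Its log2 fold changes were -0.67 ± 0.22, -1.85 ± 0.23 and -1.67 ± 0.23, with edgeR adjusted p of 0.033, 1.3e-05 and 4.8e-05. All 9 treated libraries were below all 3 Vehicle libraries. The call with SAHA was lost without any of the 6 libraries of that comparison, with adjusted p between 0.051 and 0.139.

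Mrps18a stood between its paralogs, at -0.27 with SAHA (not called), -1.03 with TSA and -0.51 with A485. The A485 call was lost without Vehicle replicate 1 or A485 replicate 1 or 2, with adjusted p of 0.071, 0.112 and 0.136. Mrps18c has an exon overlapping Gm43511 on its own strand and Mrps18b 1 overlapping Gm16279 on the opposite strand, so reads of these pairs may have been shared or left out.

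The ratio of Mrps18b to Mrps18c within a library does not depend on scaling between libraries. Per length, it was 0.604, 0.607 and 0.406 with SAHA, 0.23, 0.239 and 0.243 with TSA and 0.158, 0.295 and 0.305 with A485, against 1.33, 1.48 and 1.51 with Vehicle. On this per-length scale the order of the 2 genes was thus reversed in all 9 treated libraries, a crossing that depends on the annotated exon lengths. On the log2 scale the difference to Vehicle was -1.44 with SAHA, -2.60 with TSA and -2.57 with A485. A two-sided exact permutation test gave p of 0.1 for each, the smallest value that 3 against 3 libraries allow, and 0.233 after Benjamini-Hochberg adjustment over 7 comparisons. In the siRNA family all groups overlapped. The ratio was 0.627, 0.543 and 0.428 in the libraries labelled siP300 and 0.751, 0.455 and 0.555 in siComb libraries, against 0.871, 0.864 and 0.525 in siControl libraries (exact permutation p of 0.3 for both).

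In the siP300 and siComb groups of that family the paralogs were lower together. Mrps18a, Mrps18b and Mrps18c stood at -0.17, 0.03 and -0.22 with siKat6a and at -0.14, -0.30 and -0.54 with siKat6b, none of them called. In the libraries labelled siP300 the log2 fold changes were -1.14 ± 0.19 for Mrps18a, -1.34 ± 0.18 for Mrps18b and -0.89 ± 0.24 for Mrps18c, and in siComb libraries they were -1.04 ± 0.19, -1.24 ± 0.18 and -0.89 ± 0.24. All 6 had edgeR adjusted p below the threshold. The 2 calls of Mrps18c were lost without siControl replicate 3, where it had 272 CPM against 174 CPM in the other siControl libraries, with adjusted p of 0.062 for siP300 and 0.062 for siComb, and that for siP300 also under scaling by library size alone (0.055). The plot of the paralogs by library gives CPM without division by length, and on that scale Mrps18b still exceeded Mrps18c in SAHA replicates 1 and 2.

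**Figure D4:**
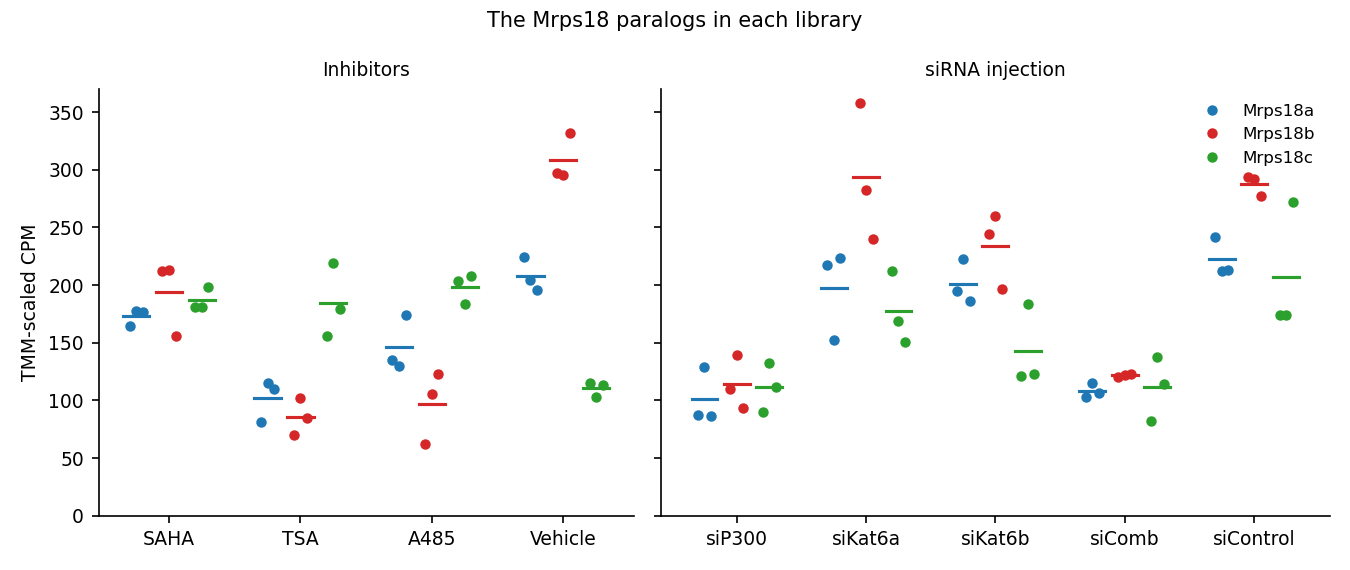
TMM-scaled CPM (vertical axis) of Mrps18a, Mrps18b and Mrps18c in each library of the inhibitor family (left) and of the siRNA family (right). Points are libraries and dashes group means (n = 3). With SAHA, TSA and A485, Mrps18b lies below and Mrps18c above its Vehicle level, which averaged 308 CPM for Mrps18b and 110 CPM for Mrps18c, while both lie below their siControl level in the siP300 and siComb groups.

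The families have separate controls, and the same genes can be set against each other across them. TSA and siP300 shared 38 genes called lower, which is 73.1% of the 52 lower with TSA and 70.4% of the 54 lower in the siP300 group, and 4 genes were higher with TSA and lower in the siP300 group. Over all genes tested in both families the shares were 35.4 and 58.3%. Since 72% of the 75 genes were lower in the siP300 group, the 73.1% is close to the share over all 75. The 70.4% is likewise close to the share given by the 52 of 75 genes lower with TSA. Over the 75 genes, the log2 fold changes of the 2 comparisons had a Pearson r of 0.24 and a Spearman rho of 0.21, given as a description across genes that share libraries. Over the 17194 genes tested in both families r was 0.64. A485 and siP300 shared 22 genes called lower, or 81.5% of the 27 lower with A485 and 40.7% of the 54, with 5 genes higher with A485 and lower in the siP300 group. Over all genes the shares were 34.8 and 50.6%. The 81.5% is to be read beside the 72% of the 75 genes lower in the siP300 group. The 40.7% is to be read beside the 27 of 75 genes lower with A485. Between A485 and siP300 r was 0.36 over the 75 genes and 0.23 over all genes tested in both. The plot of TSA against siP300 places Mrpl36 low on both axes and Mrps18c and Mrpl20 high on the TSA axis only.

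**Figure D5:**
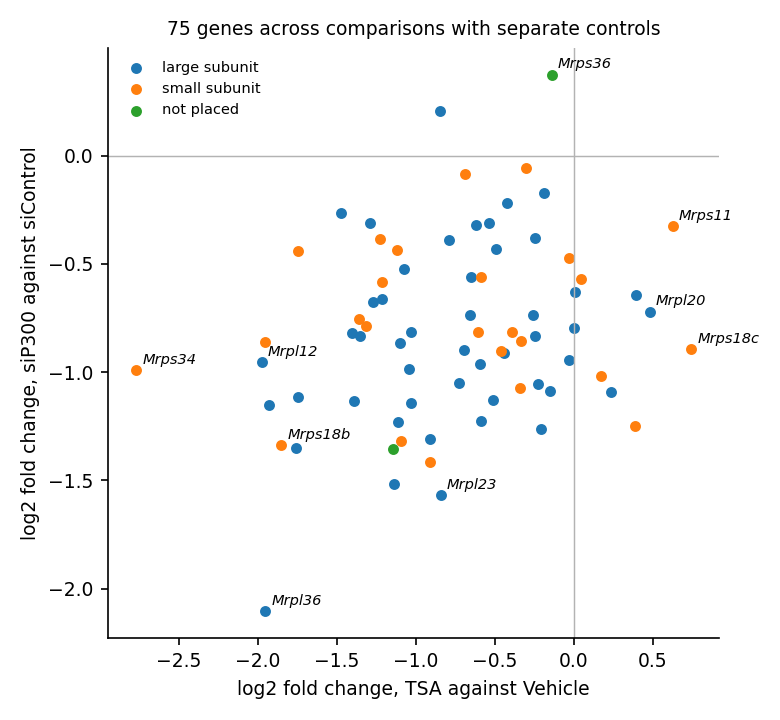
Log2 fold change of the 75 tested genes with TSA against Vehicle (horizontal axis) and in the libraries labelled siP300 against siControl (vertical axis), coloured by subunit. Most points lie at the lower left, where 38 genes were called lower in both comparisons, and Mrpl36 lies at -1.95 and -2.10.

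Genes that act with the mitoribosome were described from lists of known members. Of the 5 mitoribosomal proteins without an Mrpl or Mrps symbol, 3 were lower with TSA and 0 higher, beside 26.6 and 31.6% of all genes. Gadd45gip1, also a large-subunit protein, averaged 40 ± 8.98 CPM with TSA and 129 ± 10.3 CPM with Vehicle (log2 fold change -1.70), and Aurkaip1 stood at -0.53. Chchd1, a small-subunit protein, turned with the inhibitor. It had 48.1, 60.4 and 53.8 CPM with TSA and 342, 328 and 380 CPM with A485, against 167, 135 and 151 CPM with Vehicle, so that the log2 fold changes were -1.48 ± 0.15 and 1.21 ± 0.15 (edgeR adjusted p of 2.1e-06 and 1.7e-05). With SAHA it was lower by -0.64. In the libraries labelled siP300 4 of the 5 were lower (2 without siP300 replicate 3), beside 15.7% of all genes. Among them were Chchd1 at -0.92 and Dap3, a GTP-binding protein of the small subunit, at -0.62. Gadd45gip1 was lower by -0.93 there, a call lost without siControl replicate 1 or 2 or siP300 replicate 1 or 3 (adjusted p of 0.094, 0.066, 0.106 and 0.113). Under scaling by library size alone Dap3 (-0.30, adjusted p of 0.113), Gadd45gip1 (-0.62, 0.107) and Aurkaip1 (-0.23, 0.204) were not called.

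The ribosomal RNAs of the mitoribosome were higher with each inhibitor and in the siP300 and siComb groups. RNAs of its protein genes were mostly lower with TSA and in those 2 groups, but not with SAHA or A485. mt-Rnr2 had 5994, 5211 and 6093 CPM with SAHA, against 2515, 2188 and 2537 CPM with Vehicle, a log2 fold change of 1.26, and it was higher by 1.82 with TSA and by 1.12 with A485. mt-Rnr1 was higher by 0.84, 1.35 and 1.60 with SAHA, TSA and A485. In the libraries labelled siP300 mt-Rnr1 had 1449, 1323 and 1502 CPM, against 614, 824 and 828 CPM in siControl libraries, a log2 fold change of 0.92, and in siComb libraries it was higher by 0.87. mt-Rnr2 was higher by 0.68 in the siP300 group, a call lost without siControl replicate 1 (adjusted p of 0.056), and by 0.72 in the siComb group. Groups did not overlap in any of these comparisons. The RNA was selected by its poly(A) tail, so these values report the tailed part of each ribosomal RNA.

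Among 11 protein genes of mitochondrial DNA tested, 8 were higher with TSA, 6 with A485 and 6 with SAHA (3 without SAHA replicate 3), and 0 were lower. The shares of all genes higher were 31.6% with TSA, 21.4% with A485 and 20.2% with SAHA. Of 12 tested in the siRNA family, 10 were higher in the siP300 group and 9 in the siComb group (6 at the fewest when a library was left out), and 0 were lower. There 19.7 and 19.6% of all genes were higher. Nuclear genes of the respiratory chain differed between treatments. Of 72 tested, 29 were lower and 14 higher with TSA (9 higher without Vehicle replicate 2 or 3), while A485 left 41 higher and 8 lower (5 lower without A485 replicate 2) with a median of 0.51. Among all genes 26.6% were lower and 31.6% higher with TSA, and 24.2% lower and 21.4% higher with A485, so that the 19.4% of these genes higher with TSA was below the background and the 56.9% higher with A485 above it. Ndufa4, a subunit of complex IV, averaged 1238 ± 53.1 CPM with A485 and 373 ± 18.2 CPM with Vehicle. In the siP300 group 37 of 72 were lower and 2 higher (1 higher without siControl replicate 1), beside 15.7 and 19.7% of all genes. Cytosolic ribosomal proteins were lower in 71 of 79 cases in the siP300 group and in 75 of 79 in the siComb group, with medians of -0.97 and -1.22. Of all genes 15.7 and 17.1% were lower there. With TSA 14 of 78 were lower (17.9%, below the background, median -0.16). The TSA count fell to 9, 5 and 8 without Vehicle replicate 1, 2 and 3 and to 4 without TSA replicate 3.

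Factors that assemble the mitoribosome or work on it were described beside the share of all genes called. With TSA, where 26.6% of all genes were lower, 14 of 28 assembly factors were lower and 2 higher, among them Rpusd4, a pseudouridine synthase of the large ribosomal RNA, at -2.44 and Mtg1, a GTPase of the large subunit, at -1.65. Of 20 mitochondrial aminoacyl-tRNA synthetases, 14 were lower and 1 higher, led by Ears2 (-2.07), Fars2 (-1.86) and Sars2 (-1.69). Of 16 translation factors, 6 were lower and 2 higher, and Gfm2, which recycles the mitoribosome, was higher by 1.11, whereas Tufm, the elongation factor that delivers tRNA, was lower by -1.06. With A485, 8 of 28 assembly factors were lower and 3 higher (5 higher without A485 replicate 1), and the 28.6% lower was near the 24.2% of all genes. Tufm was lower by -1.26 and Slirp, which stabilises mitochondrial messenger RNA, was higher by 0.90. In the libraries labelled siP300, 6 of 28 assembly factors were lower and 1 higher, including Malsu1 (-0.98) and Ngrn (-1.01), and the 21.4% lower was near the 15.7% of all genes. Without the 4 libraries high in MERVL 9 were lower.

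Of 10 tested regulators of nuclear genes for mitochondria, 6 were lower and 1 higher under TSA (0 higher without Vehicle replicate 1 or 2) and 4 were lower and 0 higher under A485 (2 higher without A485 replicate 2), beside 26.6% of all genes lower with TSA and 24.2% with A485. Ppargc1b, a coactivator of such genes, had 1.09, 1.31 and 0.258 CPM with TSA and 0.472, 0.181 and 0.0858 CPM with A485, against 21.7, 21.6 and 22.2 CPM with Vehicle. It was lower by -1.97 on the log2 scale in the libraries labelled siP300 and by -2.23 in siComb libraries. Nrf1, the factor whose motif was searched above, averaged 38.6 ± 3.7 CPM with TSA and 78.7 ± 2.13 CPM with Vehicle (log2 fold change -1.03). Tbrg4, which binds mitochondrial RNA, was lower by -1.46 with TSA and by -2.16 with A485.

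Features of the genes were set beside these changes without a test. Exons of 30 of the 75 tested genes overlap another annotated gene. With TSA their median log2 fold change was -1.06, with 20 lower and 3 higher, and the other 45 had a median of -0.60, with 32 lower and 2 higher. In the siP300 group both medians were -0.83. The 54 genes lower in the siP300 group had a median of 212 CPM in siControl libraries and the 21 not called 99.3 CPM, whereas with TSA the 52 lower genes and the 18 not called had medians of 162 and 163 CPM in Vehicle libraries. Of the marker lists for other cells, the 8 cumulus and granulosa genes summed to 1.67 to 12.2 CPM and the 6 oviduct and stroma genes to 0 to 18.8 CPM over all 27 libraries. The 6 blood genes summed to 36.2 to 60.3 CPM with TSA and 29 to 59 CPM with A485, against 10.9 to 15.7 CPM with Vehicle, and to 59.7 to 170 CPM in the siP300 and 99 to 148 CPM in the siComb group, against 4.35 to 5.71 CPM with siControl. Of that list, Cd68 was detected in all 27 libraries at 2.05 to 76.8 CPM and Hba-a1 was at 0 in 1 library and reached 117 CPM. Hbb-bs was at 0 in all 27 libraries, Ptprc in 19, Tyrobp in 24 and Lyz2 in 7. The part of this list in the results was not tested. The morula list summed to 2105 to 3026 CPM with A485 and 8590 to 13909 CPM with TSA, against 9624 to 10307 CPM with Vehicle. It summed to 5604 to 7420 CPM in the siP300 and 3254 to 4446 CPM in the siComb group, against 10301 to 14346 CPM with siControl. Dppa3 had a median of 7950 CPM over all 27 libraries and Krt18, the next highest of that list, 482 CPM. The morula sums thus largely follow Dppa3, and the part of this list in the results was not tested either.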

How the data were processed

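Counts per gene of polyadenylated RNA, amplified with a low-input kit per the labels' protocols, were made by the authors and deposited as raw counts. The submitters' processing notes name STAR 2.7.11a, featureCounts and Subread 2.0.6, with MultiQC and Scanpy 1.8.2, and the builds mm10 and GRCh38 without roles. No source used here gives the annotation release, the strand setting or how read pairs were handled. Of the nonzero counts 84.5% were even. The series table equalled the sample files in 27 of 27 libraries, and 0 columns belonged to other samples.

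Sample titles gave the groups. The test was edgeR's quasi-likelihood test (version 4.0.16, TMM scaling, filterByExpr with a minimum count of 10, R 4.3.3), 1 fit per family, on 18299 and 19182 genes, with Benjamini-Hochberg adjustment over all genes and a threshold of 0.05. SE is the log2 fold change over the root of F. Library totals (7633990 to 11991314) limit the precision. On simulated counts the test recovered 23 of 67 genes changed 2-fold and 56 of 66 changed 4-fold for SAHA against Vehicle (15789 genes, 10 false among 91 calls). For siP300 against siControl it recovered 7 of 67 and 49 of 66 (17156 genes, 6 false among 66 calls). The simulation changed far fewer genes than the 34.2 and 35.4% called in the data for these comparisons. The adjusted threshold was thus harder to pass there, and its recovery does not describe the fits of the data. The genes, lists and tests were chosen with earlier results of these data known.

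The rule named, per comparison, up to 6 highest and 6 lowest called genes whose groups were apart and whose mean reached 10 CPM, the Mrps18 paralogs, Mrps30, Mrps36, Mrpl12, Dap3, Gadd45gip1 and the mitochondrial ribosomal RNAs, and up to 3 called genes per list. Not all of these were written out, and Mrpl21, Mrpl37 and the genes named for siKat6b were chosen after their values were seen. Coordinates and lengths are from GENCODE vM21 (GRCm38, which the notes call mm10). Marker lists are of morula, cumulus, oviduct and blood genes.

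Alternatives were DESeq2 1.42.0, its size factors, library size alone, no filter, a mean of at least 5 CPM, a fit of the compared groups alone, a replicate block, leaving out each library, and a siRNA fit without the 4 libraries high in MERVL. Halved counts, all 27 libraries in 1 fit and mitochondrially encoded rows left out were added after seeing the data. Tables and figures were made in Python 3.11.15 (SciPy 1.17.1, numpy 2.4.6, pandas 2.3.3, matplotlib 3.10.9).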

Additional observations from a re-analysis of the deposited data

How the results depend on the processing

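Counts of called genes kept their side under most settings. With SAHA, 11 rather than 7 genes were higher under DESeq2, its size factors, a mean of at least 5 CPM and a fit of the 2 groups alone. With TSA, 3 rather than 5 were higher under library size alone, no filter and all 27 libraries in 1 fit, Mrpl49 and Mrps33 losing their calls. In the siP300 group 1 gene (Mrps36) was higher under library size alone and a mean of at least 5 CPM. With siKat6b, 4 were lower under DESeq2 and 5 (Mrpl30, Mrpl35, Mrpl36, Mrps33 and Mrpl42) under no filter. The cause was not tested. Leaving out 1 library gave 3 to 7 higher and 9 to 13 lower with SAHA, 3 to 5 and 45 to 50 with TSA, 9 to 15 and 19 to 25 with A485, 0 to 1 and 46 to 60 with siP300, 0 to 0 and 0 to 3 with siKat6b, 1 to 2 and 43 to 52 with siComb. Genes' shares of counts ranged over 1.23 to 1.31% (SAHA), 0.77 to 0.834% (TSA), 1.24 to 1.28% (A485), 1.37 to 1.4% (Vehicle), 0.885 to 1% (siP300), 1.32 to 1.41% (siKat6a), 1.2 to 1.3% (siKat6b), 0.907 to 0.973% (siComb) and 1.42 to 1.5% (siControl). Samples were treated as unpaired. Of 48 same-numbered pairs, 4 correlated above 0.1 (range -0.29 to 0.37), but differently numbered pairs were not set beside them, so this cannot settle whether replicate numbers pair the samples. A fit with the replicate as a block gave 1 rather than 2 genes higher with siComb and 53 rather than 54 lower. Counts with siKat6a and of siComb against siP300 stayed at 0 in every setting run. Halved counts left 18 rather than 15 lower with SAHA. Of genes changed 1.5-fold, 2 of 67 (SAHA) and 4 of 67 (siP300) were recovered on simulated counts. Few genes were changed there, so these shares do not describe how well such changes were called in the data.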
